A study of Drosophila melanogaster with 4 samples.

Results

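Broad domains of histone H3 trimethylated at lysine 27 (H3K27me3) were taken as the enriched regions at least 10 kb wide on chromosome arms 2L, 2R, 3L, 3R, X and 4 of Drosophila melanogaster. They were chosen by width alone from the combined list of enriched regions, called clusters here, that was deposited for the whole series. There were 293 such domains among 4966 clusters in the combined list, and among 4792 on the 6 arms. The chromatin came from whole wild-type Oregon-R larvae of the third instar, and immunoprecipitated and input samples shared that strain, genotype and stage. The mark was precipitated with a mouse monoclonal antibody raised against a peptide of human histone H3 carrying the trimethyl group. The series held 2 immunoprecipitated (ChIP) libraries, replicates 1 and 2, and 2 input libraries of unprecipitated chromatin. A list of 2510 clusters was deposited for replicate 1 and 1819 for replicate 2. The labels do not state whether the replicates came from separate larval collections, so differences between them may be partly technical. Whole larvae hold many cell types, and a domain marked in a part of the cells cannot be told apart here from one marked more weakly in all of them. All coordinates are those of FlyBase release 5.

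H3K27me3 is placed by the Polycomb repressive complex that contains the methyltransferase Enhancer of zeste. The mark is bound by the chromodomain protein Polycomb, a subunit of a second repressive complex, and it spreads in flies from Polycomb response elements over neighbouring chromatin. The domains so formed are known for keeping developmental regulators silent in the cells where they are not used, among them the homeotic genes, which set the identity of body segments. In the RefSeq gene table of release 6, used for names and arms alone, the homeotic genes lab, pb, Dfd, Scr, Antp, Ubx, abd-A and Abd-B were on 3R, as were the segmentation genes ftz, hh, hb and tll. The segmentation genes wg, slp1, slp2, odd and prd were on 2L, and en, inv, eve, gsb and Kr on 2R. The Iroquois homeobox genes ara, caup and mirr were on 3L, and the wing genes ct and sd on X. The eye selector genes ey and toy were on chromosome 4. Genes were not placed inside domains, because no annotation of release 5 was used here, so the domains are named by position.

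The broad domains were a small minority of clusters and held the larger share of the marked sequence. They made up 6.11% of the clusters on the arms and 55.8% of the clustered sequence there, 11.6 Mb out of 20.8 Mb. They covered 9.63% of the arms. The median width was 25.0 kb, the quartiles were 14.4 and 47.6 kb, and the 90th percentile was 91.5 kb. The widest 55 domains, 18.8% of all, held 50% of the broad sequence. By width, 117 domains were 10 to 20 kb, 108 were 20 to 50 kb, 42 were 50 to 100 kb and 26 were 100 kb or more. The 26 widest held 31.0% of the broad sequence and the 117 narrowest 13.7%. Applied to each replicate list on its own, the same width rule gave 214 broad clusters with 7.49 Mb in replicate 1 and 252 with 10.8 Mb in replicate 2. Read depth behind the lists is unknown, so these differences between replicates cannot be separated from depth.

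Width varied continuously across the 10 kb limit. The narrowest domains were 10015 bp on 3L from 20914152, 10024 bp on X from 5254018, 10028 bp on 2L from 19764663, 10038 bp on 2L from 16364091 and 10079 bp on X from 3695486. The widest clusters left out were 9949 bp on X from 8344192, 9805 bp on 2R from 7702300, 9757 bp on 2R from 2483164, 9689 bp on 3R from 14083318 and 9622 bp on X from 20493816. The values on both sides overlapped. The 5 narrowest domains were covered for 14.2% to 88.9% of their width in replicate 1, and the 5 widest excluded clusters for 33.9% to 75.6%. In replicate 2 the ranges were 67.2% to 99.9% and 52.4% to 100%.

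Every arm carried broad domains, at similar numbers per megabase on the 5 large arms. The numbers were 58 on 2L, 53 on 2R, 54 on 3L, 66 on 3R, 54 on X and 8 on the small chromosome 4. The large arms carried 2.20 to 2.52 domains per Mb, and chromosome 4 carried 5.92. Domains took up 12.01% of chromosome 4, 11.2% of 3R, 11.1% of 2L, 9.02% of X, 8.35% of 3L and 7.94% of 2R. By the broad clusters of the replicate lists themselves, the shares were 9.60% ± 2.04 for 3R (SD, n = 2), 8.74% ± 2.52 for 2L, 7.43% ± 6.66 for chromosome 4, 6.70% ± 1.47 for X, 6.33% ± 1.89 for 3L and 6.24% ± 1.58 for 2R. Neighbours in that order differed by less than their SDs. Replicate 1 gave the lower share on every arm, so the SDs include a shift common to the arms. Within each replicate 3R exceeded 2L and 2L exceeded X. The shares were 8.15%, 6.96% and 5.66% in replicate 1 and 11.0%, 10.5% and 7.74% in replicate 2. Chromosome 4 was lowest in replicate 1 (2.72%) and highest in replicate 2 (12.1%), and 3L and 2R changed places.

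Domain width differed in its middle values between arms while the ranges overlapped widely. Median width was 31.1 kb on 3R, 30.5 kb on 2L, 28.0 kb on 3L, 21.0 kb on 2R, 19.0 kb on chromosome 4 and 16.2 kb on X. Of the 26 domains of 100 kb or more, 3R had 9, 2L had 7, X had 5, 3L had 3 and 2R had 2. Chromosome 4 had 0, and its widest domain was 35.8 kb. X thus had the lowest median and still held 5 of the 26 widest domains. No test was made between arms, since the width rule chose the members.

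**Figure D1:**
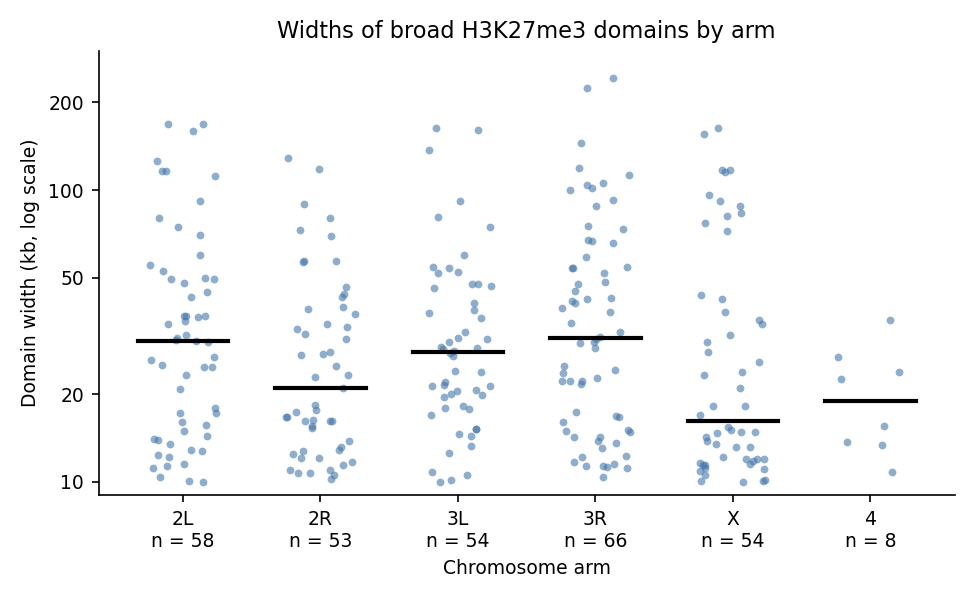
Width of each broad domain in the combined list, in kb on a log axis, by chromosome arm, with 1 point per domain and a black line at the median of the arm. Medians run from 16.2 kb on X to 31.1 kb on 3R, and the widest domain, 241.6 kb, lies on 3R.

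The domains were unevenly spaced, with long stretches of an arm free of them. Among 287 pairs of neighbours the median distance was 149.2 kb, with quartiles of 14.4 and 550.9 kb. Distances over 1 Mb numbered 27. The longest distances between neighbours were 2996.3 kb on 3R from 14206350 to 17202692 and 2258.3 kb on 3L from 16025059 to 18283362. After these came 1965.5 kb on 2R from 11736023 to 13701493. The next were 1846.7 kb on 3L from 9045857 to 10892549 and 1781.2 kb on X from 10726246 to 12507435. On chromosome 4 no distance between neighbours exceeded 171.0 kb. Arm ends are left out of these distances. The last domain of 3L was followed by 1954.4 kb, and the first domain of chromosome 4 began at 402103.

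Counted in windows of 1 Mb, domains ranged from none to 8. Of 118 full windows, 15 held no base of a domain, and 12 held the centres of 5 or more, 74 domains in all. The mean was 2.45 centres per window and the variance 3.22. The densest windows, with 8 centres each, were 3L between 1 and 2 Mb, 3L between 6 and 7 Mb, and X between 3 and 4 Mb. Domains covered 24.1%, 25.3% and 10.7% of these windows, against a median of 8.43%. The windows with most domain sequence were 3R between 2 and 3 Mb (41.0%) and between 12 and 13 Mb (40.6%), with 4 centres in each, and X between 7 and 8 Mb (34.7%), with 7.

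Position along the arm varied from arm to arm. With each arm cut into 5 equal parts from its first base, domains on 2R covered 4.45% of the first part, which adjoins the centromere, and 13.2% of the last, at the telomere. On X they covered 17.1% of the second part and 3.55% of the next. On 3L the fourth part was lowest, with 2.08%. The last domain of 2R, from 21081727 to 21138685, ended 8.02 kb before the end of the arm. On 3R, which is also numbered toward the telomere, the last domain ended 1004.2 kb before the end. The arms 2L, 3L and X are numbered from the telomere, so their ends lie on the side of the centromere. Their last domains ended 974.8 to 1954.4 kb before those ends. On the telomere side their first domains began at 364989, 365738 and 279824.

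Part of the domains lay in tight groups. A distance of 10 kb or less separated 65 pairs, 22.6% of all, and 14 more pairs were 10 to 20 kb apart. Joining domains at 10 kb or less gave 45 groups, of which 29 had 2 domains, 12 had 3 and 4 had 4. The groups took in 110 domains, 37.5% of all, and 44.7% of the broad sequence. Grouped domains were 51.7% of those of 2L, 38.9% for 3L, 37.5% for chromosome 4, 36.4% for 3R, 35.2% for X and 24.5% for 2R. Grouped domains had a median width of 29.4 kb and single ones 23.0 kb, and the median scores, 1.23 in each, were the same at this precision.

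**Figure D2:**
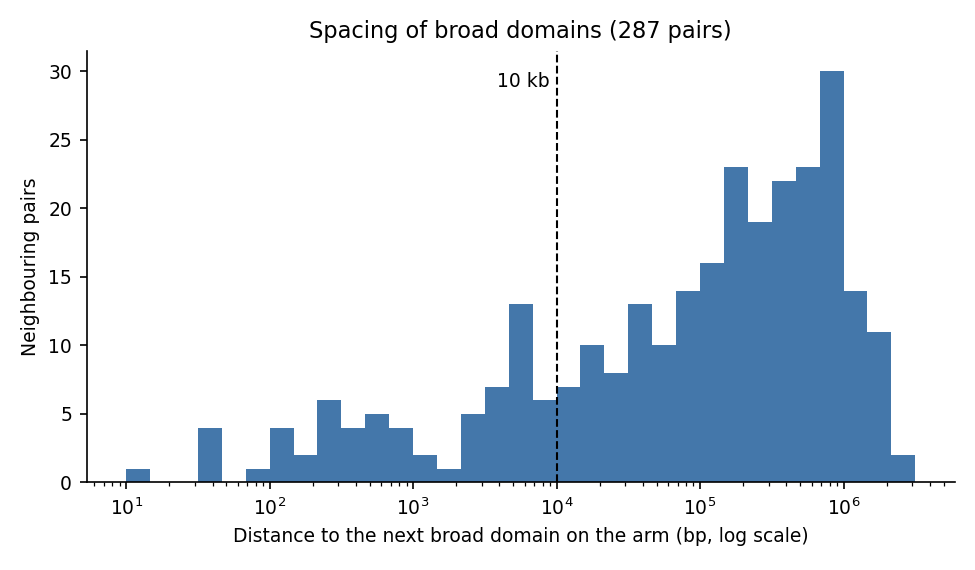
Distance in bp on a log axis between neighbouring broad domains of the same arm, as numbers of pairs per bin, with a dashed line at 10 kb. Of 287 pairs, 65 lie at or below 10 kb, and the median is 149.2 kb.

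The longest runs of domains were on 3R. A group of 3 spanned 404.2 kb from 2485892 to 2890077, of which 98.7% was inside its domains of 45.0, 112.3 and 241.6 kb. A group of 2 spanned 328.6 kb from 12481881 to 12810521 with domains of 101.3 and 223.3 kb, and another group of 2 spanned 238.0 kb from 6262852 to 6500805. On 2L, groups of 3 spanned 221.7 kb from 15276189 to 15497865 and 211.2 kb from 11284332 to 11495519. Grouping brought the number of stretches of 100 kb or more from 26 single domains to 33. Replicate 1 covered 95.8%, 98.1%, 94.6%, 69.3% and 94.9% of the domains in these 5 groups, in the order given. Replicate 2 covered at least 98.4% of each.

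The 4 groups with most members were made of narrower pieces. On 3L, 4 domains spanned 178.2 kb from 6756903 to 6935136, and another 4 spanned 136.6 kb from 1352368 to 1489002. On X, 4 domains spanned 169.3 kb from 7004653 to 7173997 and 4 spanned 60.3 kb from 3925763 to 3986025. Domain sequence filled 94.1% to 99.1% of these 4 spans. Replicate 1 covered 90.3% and 85.6% of the domain sequence in the groups on 3L, and 88.5% and 73.2% of that on X.

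In 31 of the 65 close pairs the domains lay within 1 kb of each other, and the shortest distances were 14 bp on 2L after 603107, 34 bp on X after 7039872, 37 bp on 2R after 8963898, 38 bp on 2L after 14551759 and 46 bp on 3L after 12565434. Replicate 1 covered no base in any of the 31, which is bound to occur where its clusters lie inside those of the combined list. Replicate 2 ran through 8 of the 31 without a break and covered under 10% of 14. By score rank among the 293 domains, the paired domains lay a median of 80 places apart, with quartiles of 39.5 and 143.5. At the 37 bp join of 2R a domain of 128.7 kb ranked 32 and its neighbour of 16.2 kb ranked 251. The wider domain had the higher score in 25 of the 31 pairs. The same held for 26 of the 34 pairs over 1 kb and up to 10 kb apart.

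The other 34 short distances were over 1 kb and up to 10 kb. Both replicates covered under 10% of the interval in 24 of these, and 22 held no other cluster of the combined list. The flanking domains lay a median of 46 places apart by score rank, with quartiles of 17.8 and 91.2, a range that overlaps that of the pairs within 1 kb. In the 404.2 kb group of 3R the intervals were 2.03 and 3.29 kb, with scores of 1.84, 1.85 and 1.93 from left to right. In the 328.6 kb group the interval was 4.09 kb, uncovered in both replicates, between scores of 2.30 and 2.54. An interval of 5.30 kb on 3R after 714281 lay between domains that scored 2.74 and 2.19, and replicate 2 covered 0.227% of it.

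Nearly all broad domains were met by clusters of both replicate lists. This overlap is not independent support, because the combined list comes from the same libraries. At least 1 bp of 291 of the 293 domains was found in both lists, where the share among all arm clusters was 17.4%. At least 50% of the width was covered in both lists for 237 domains, against 11.0% of all arm clusters. At least 90% was covered in both for 115 domains, against 2.63%. A wide region is met more easily by chance, so nothing is read from these differences.

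By sequence, replicate 2 covered 98.2% of the domains and replicate 1 covered 85.3%. Both replicates covered 84.8% of the 11.6 Mb, replicate 2 alone 13.4%, replicate 1 alone 0.456% and neither 1.34%. The part in neither list was 155.2 kb. The median domain was covered for 84.6% in replicate 1 and 99.3% in replicate 2. In replicate 1, 116 domains were covered for at least 90% and 56 for under 50%. In replicate 2 the same counts were 250 and 1.

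Coverage in replicate 1 was lowest in the narrowest domains. Median coverage there was 58.7% at 10 to 20 kb, 89.6% at 20 to 50 kb, 95.2% at 50 to 100 kb, and in those over 100 kb it was 96.2%. In replicate 2 the medians were 95.2%, 99.5%, 99.8% and 99.9%. The ranges were broad at every width in replicate 1, from 0% to 98.2% in the narrowest class and from 68.1% to 99.7% in the widest. For comparison, the 259 clusters of 5 to 10 kb had medians of 37.6% in replicate 1 and 86.3% in replicate 2. Over the 293 domains, which share their libraries, width and replicate 1 coverage had a rank correlation (Spearman) of 0.584, and for replicate 2 the value was 0.516.

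**Figure D3:**
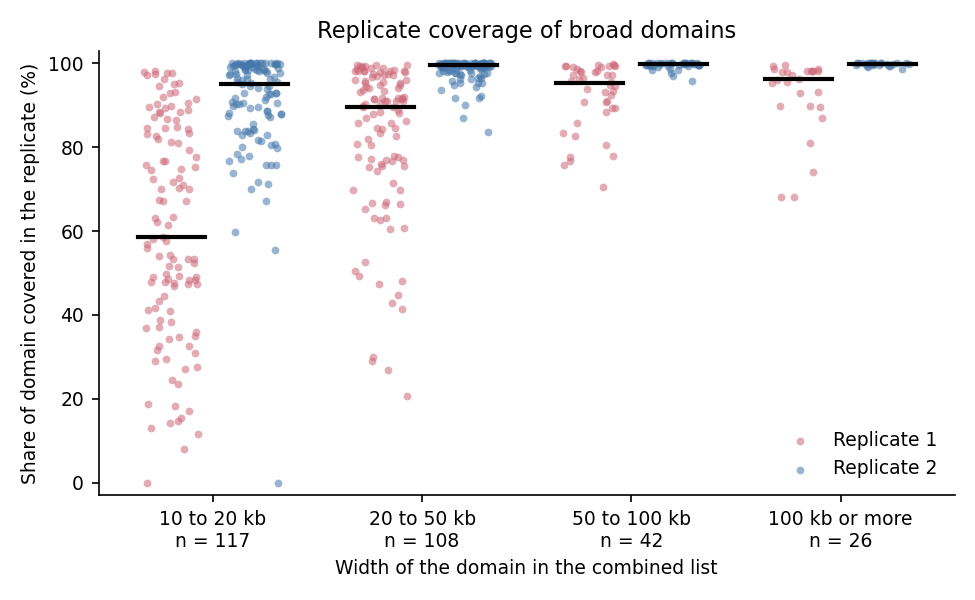
Share of each broad domain covered by clusters of replicate 1 (red) and replicate 2 (blue), in percent, by width class, with 1 point per domain and black lines at the medians. Replicate 1 medians run from 58.7% to 96.2% with rising width, and replicate 2 medians from 95.2% to 99.9%.

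A few domains were missing or thin in a replicate. The domain on 3R from 11382295 to 11392728 had no base in replicate 1 and 98.4% in replicate 2. The domain on X from 1422180 to 1433295 had 15.4% in replicate 1 and no base in replicate 2. Of its 11116 bp, 9407 bp were thus in neither replicate list. It was the sole domain under 50% in replicate 2. The other 8 of the 10 lowest in replicate 1 were 10.0 to 17.6 kb wide, lay on 2R, 3L and X, and had 8.12% to 18.7% there against 70.0% to 96.8% in replicate 2. These 10 domains scored 0.504 to 0.650, all within the lowest of 3 equal score classes, which ended at 0.871.

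Replicate 1 broke the domains into more pieces. A domain met 3.28 clusters on average in replicate 1 and 1.43 in replicate 2. After joining replicate clusters closer than 1 kb the averages were 1.97 and 1.06, and at 5 kb they were 1.10 and 0.997, so the contrast rests on short breaks. It met exactly 1 cluster in 80 cases in replicate 1 and in 206 in replicate 2. A single uninterrupted piece spanned at least 90% of the domain in 66 domains in replicate 1 and in 209 in replicate 2, and in 64 domains in both. By width class, replicate 1 had such a piece in 7.69% of domains at 10 to 20 kb and 33.3% at 20 to 50 kb. The shares were 38.1% at 50 to 100 kb and 19.2% in those over 100 kb. In replicate 2 the shares of the same classes were 51.3%, 80.6%, 95.2% and 84.6%. A lone piece that stops short of the domain edges can fall below 90%. Mean replicate 1 pieces per domain rose with width, at 2.26, 3.06, 4.12 and 7.42 in these classes.

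Of the 26 widest domains, 2 met exactly 1 replicate 1 cluster. In 5 of the 26, a single replicate 1 piece spanned at least 90% of the domain, though shorter pieces could lie beside it. These 5 included 2L from 12564806 to 12690229 and 2R from 7348045 to 7465713. Those of 3R ran from 9665805 to 9785111, from 12481881 to 12583137 and from 12587224 to 12810521. The last 2 form the 328.6 kb group, and the longest replicate 1 pieces spanned 98.0% and 97.0% of them. At the other end, the domains with most replicate 1 pieces were 2L from 15287729 and 3L from 20541406 with 22 each, 3L from 10892549 with 20, 3R from 7078894 with 17 and X from 7394722 with 16. Their longest replicate 1 pieces spanned 11.2% to 36.5% of the domain. Replicate 2 had 1 to 3 clusters in each of these 5.

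**Figure D4:**
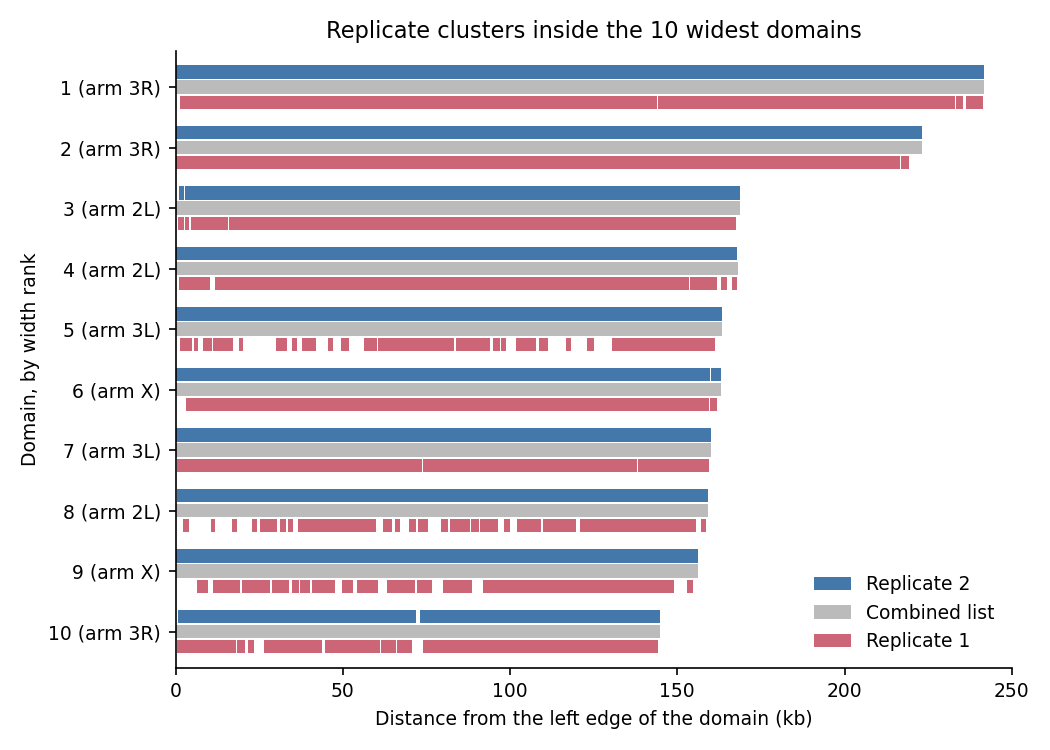
Clusters of replicate 2 (blue) and replicate 1 (red) inside the 10 widest domains of the combined list (grey), as distance in kb from the left edge of the domain, ordered by width. Replicate 1 has between 2 and 22 pieces per domain and replicate 2 has 1 or 2.

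The breaks in replicate 1 were mostly short and mostly filled in replicate 2. Between pieces inside domains there were 666 breaks in replicate 1, with a median of 792 bp, and 380 (57.1%) were under 1 kb. Replicate 2 covered 605 of them (90.8%) completely. It covered 98.2% of all domain sequence, so a high share is likely wherever such breaks fall. Only 30 were 5 kb or longer, and the longest was 10.1 kb on 2R from 16047153 to 16057215. Replicate 2 had 128 breaks, with a median of 344.5 bp and the longest 2.91 kb. Of these, 78 had no base covered in replicate 1 and 29 were fully covered there.

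Breaks occurred throughout the domains. In replicate 1, the 5 equal parts of the domains from left to right held 140, 144, 135, 145 and 102 breaks, and in replicate 2 they held 24, 23, 23, 25 and 33. Of the 1.71 Mb of domain sequence not covered in replicate 1, 54.5% lay between pieces and the rest beyond the outermost piece or in the domain it missed. The outermost replicate 1 piece stopped short of the domain edge at 573 of 584 edges, by a median of 582.5 bp over all edges. Replicate 2 lay within 500 bp of the edge at 464 of 584 edges and replicate 1 at 265.

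Broad clusters of the replicates almost all had a counterpart among the domains. Each of the 214 replicate 1 clusters of 10 kb or more met exactly 1 domain. Of these, 212 lay wholly inside clusters of the combined list, so for them this was bound to occur. Of the 252 in replicate 2, 240 met 1 domain and 8 met 2. The other 4, of 10.5 to 18.4 kb, met none, because the combined list split each of them into clusters under 10 kb, of which the widest were 7.87 to 9.23 kb. They lay on 2L from 17763260, 3L from 15191735, and 3R from 5889320 and from 17996116.

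The deposited score was higher in wider domains up to the class of 50 to 100 kb, and differed little beyond. No source at hand states what the score measures, so scores are the authors' values and serve to rank domains inside 1 list. Domain scores ran from 0.444 to 2.78, with a median of 1.23. The median was 0.751 at 10 to 20 kb, 1.42 at 20 to 50 kb, 1.84 at 50 to 100 kb, and 1.90 in those over 100 kb. The Spearman correlation of score with width was 0.669 over the 293 domains, a description of regions from shared libraries. Inside the width classes it was 0.240 over 117 domains, 0.258 over 108, 0.207 over 42 and -0.0783 over 26, in order of rising width. At a minimum width of 20 kb it was 0.340.

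The highest-scoring domains were mostly of middle width. The first by score was 2R from 5859828 to 5877141, 17.3 kb wide, with 2.78. Next came 2R from 10321768 to 10355846 (34.1 kb, 2.77), 2R from 15131941 to 15171105 (39.2 kb, 2.76), X from 17645586 to 17688064 (42.5 kb, 2.74) and 3R from 647000 to 714281 (67.3 kb, 2.74). The other 5 of the first 10 scored 2.54 to 2.71, on 2R and X, and were 25.7 to 72.2 kb wide. In all, 6 of the first 10 lay on 2R, 3 on X and 1 on 3R, and none of the 10 was among the 10 widest. The widest domain of all ranked 67 by score, with 1.93, and the second widest ranked 11, with 2.54. The best of 2L was 1943682 to 1974777, with 2.54, and the best of 3L was 365738 to 403673, with 2.42.

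Score moved with coverage in replicate 1 at every width. Over all domains, score and replicate 1 coverage had a Spearman correlation of 0.864. Inside the width classes it was 0.794, 0.777, 0.789 and 0.691 from narrow to wide. With the domains in 3 equal classes by score, median coverage in replicate 1 was 97.3% in the highest, 85.7% in the middle and 49.1% in the lowest. The mean number of replicate 1 pieces showed no such steady order, with 2.20, 4.43 and 3.20 in the same classes. Among the broken-up wide domains, 3L from 10892549 had the lowest score of the 26 widest, 1.13, and 3L from 20541406 the next, 1.23. Replicate scores averaged over the pieces of a domain had a rank correlation of 0.932 between the lists over 291 domains. Where a replicate 2 cluster ran into 2 domains, its score entered both. The domain of 2L from 603122 thus ranked 186 by combined score and 48 by replicate 2 score. Of the 30 highest in replicate 1, 26 were also among the 30 highest in replicate 2. Width, coverage and score come from the same reads, so these relations describe the lists and are no separate evidence.

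**Figure D5:**
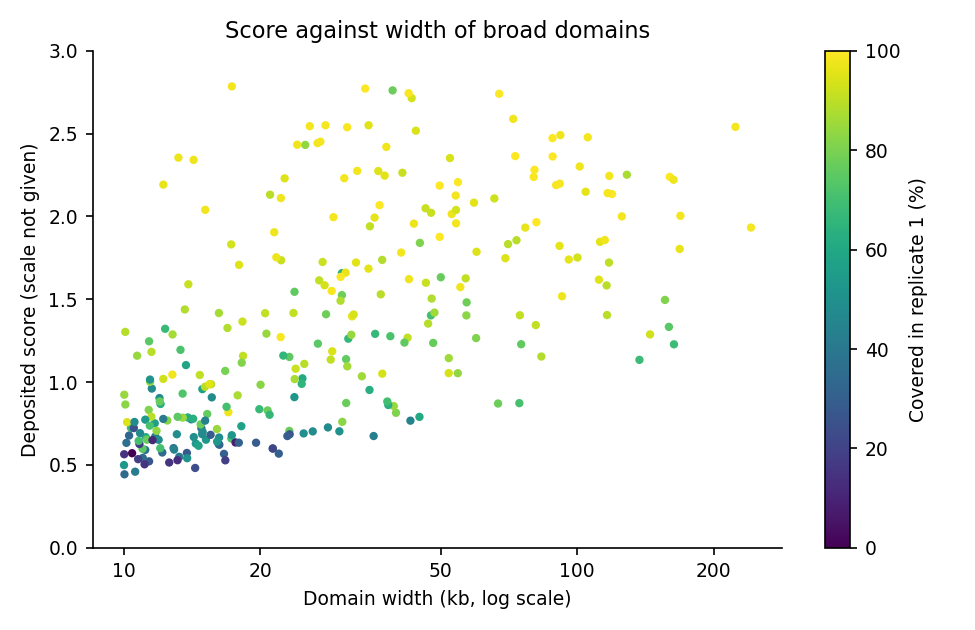
Deposited score of each broad domain against its width in kb on a log axis, with 1 point per domain coloured by its coverage in replicate 1 in percent. The correlation is 0.669 over all 293 domains. Points of low replicate 1 coverage mostly lie toward the lower scores, with exceptions such as a domain of 39.2 kb with 77.6% coverage and a score of 2.76.

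Most narrower clusters scored lower than most domains. The 4499 narrower clusters of the arms had a median score of 0.440, and 42 of them (0.934%) scored above the domain median. Of these narrower clusters, 8 scored above the highest domain score. Around the domains, 470 narrower clusters (10.4%) lay within 10 kb of one, in 4.29% of the sequence outside domains.

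Chromosome 4 carried 8 domains, all between 402103 and 1128031 and all under 36 kb. From left to right they were 10.8, 35.8, 23.8, 13.3, 15.5, 13.7, 26.8 and 22.5 kb wide. Their scores were 0.645, 1.29, 1.55, 1.19, 0.682, 1.10, 1.23 and 1.16. The fourth to sixth formed a group with intervals of 1.20 and 0.623 kb. Replicate 2 covered 95.3% to 100% of each, in 1 cluster, and replicate 1 covered 29.4% to 75.6%, in 1 to 6 clusters. Replicate 1 covered 65.6% of their sequence together, against at least 81.1% on each large arm. This comparison was not matched for width, and the large arms also hold wider domains. Over all 6 arms, replicate 1 covered 61.1% of domain sequence at 10 to 20 kb and 83.0% at 20 to 50 kb. By replicate 1's own broad clusters, 2.72% of the chromosome was inside broad regions, and by those of replicate 2, 12.1%. Domains held 72.9% of its clustered sequence.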

How the data were processed

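ChIP-seq of H3K27me3 was described from 3 deposited lists of enriched regions in GFF3 format, 1 per ChIP replicate and 1 combined list. Positions refer to FlyBase release 5, per the file headers. The submitters' processing notes name Bowtie 0.12.7. How clusters were called, at what threshold and whether against input, and how the combined list was made, are points not given in the sources used here. A score of unstated scale was deposited with every cluster. Library depths are unknown. Input libraries were not analysed here.

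Domains were combined clusters of 10 kb or more on 6 arms. Their overlap, pieces, edges, spacing and scores were computed in Python 3.11.15 (pandas 2.3.3, numpy 2.4.6, scipy 1.17.1), and figures were drawn with matplotlib 3.10.9. Interval arithmetic was tested on simulated data: in 50 simulations with lists of 40 intervals, 0 disagreed with a base-by-base count. No hypothesis test was made, since width chose the members and the lists share libraries. Members, lists and measures were chosen with earlier results of these data known. Regions were named by rule: extremes of width, score, replicate coverage, pieces and spacing, the largest groups, and chromosome 4. The unbroken wide domains, the last domain of 2R, the 5.30 kb interval on 3R, the replicate 2 clusters that met no domain and the cluster off the arms were named after their values were seen. Of 86 listed gene symbols, 85 matched the RefSeq table of release 6. It places genes beyond the release 5 length on 5 of 6 arms, so none was placed on domains. Alternatives were other minimum widths, merging, a score filter, other distances and coverage minimums, and each replicate alone.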

Additional observations from a re-analysis of the deposited data

How the results depend on the processing

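Counts within 1.5 times the main count, and values within 1 SD of the replicates, were taken as stable. Of 72 alternative values, 40 were stable and 32 were not, of which 9 concern single arms. The SD of 2 replicates sets the limit and differs much between results. It was 0.00446 for the correlation of score with width and 2.45 kb for the median distance, so even small shifts exceed it there. The tally is therefore no measure of robustness. The number of domains was 552 at a minimum width of 5 kb, 176 at 20 kb, 147 with scores at or above the median and 472 after merging clusters closer than 5 kb. The covered sequence was 8.49 Mb with that score filter and 19.6 Mb after that merging. From the replicate lists alone it was 7.49 to 10.8 Mb, or 6.22% to 9.00% of the arms, and the rank correlation of score with width was 0.616 to 0.622. That correlation was 0.759 at a minimum of 5 kb and 0.340 at 20 kb. Domains at least 90% covered in both replicates numbered 115. Leaving out either replicate, 292 domains were found in the other. Replicate 1 pieces per domain were 1.97 after merging its clusters closer than 1 kb and 1.10 at 5 kb. Domains with a neighbour made up 27.3% at a distance of 5 kb, 44.4% at 20 kb and 57.0% at 50 kb. At 10 kb they made up 58.2% with a minimum width of 5 kb and 29.0% with 20 kb. The median distance was 114.7 kb after merging at 5 kb, 30.9 kb at a minimum width of 5 kb and 327.4 kb at 20 kb. These shifts follow from what each setting adds or removes. Replicate coverage of the domains stayed within 1 SD, 9.14 percentage points, under every width, score and arm setting run. That SD is set by the difference between the replicates, so it is a wide limit. Replicate 1 coverage ran from 79.2% at a minimum width of 5 kb to 93.0% with the score filter. Replicate 2 coverage ran from 95.7% to 99.5% at the same settings. No paired analysis was possible because only ChIP lists were analysed and no groups were tested. Depth is unknown.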

Other observations

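Outside the 6 arms, the combined list held 1 cluster of 10 kb or more, on the heterochromatic sequence of 3L from 201105 to 219651. It was 18.5 kb wide and scored 1.16. Replicate 2 covered 100% of it and replicate 1 covered 28.5%, in 2 pieces.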
